A study of Mus musculus with 60 samples.

Results

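The SLC25 solute carriers of the mouse are described here in 3 tissues, over ageing and over 2 diets of old mice. The genes were taken by name: every probe set of the array whose gene symbol starts with Slc25a was included, whatever its signal. This rule gave 93 of 45037 probe sets, which stand for 44 of 18193 genes. No measured value was used to choose them. A further probe set lists Slc25a37 only after another gene and was left out.

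RNA of the heart, the gastrocnemius muscle of the hind limb and the neocortex was measured on 60 Affymetrix Mouse 430 2.0 arrays, 5 for each of 12 groups, with 1 animal on an array. All animals were male hybrids of C57BL/6 and C3H/He mice, kept in single cages, and no altered gene is named. Young controls were 5 months old. Old mice were 30 months old and had been on the control diet, on calorie restriction (CR) or on the control diet with resveratrol at 4.9 mg per kg and day, the last 2 from 14 months of age. The labels state a restriction of 40% for CR, and the methods of the study describe a smaller cut in weekly calories. The resveratrol group was compared at 1 dose, and 1 age stands for all old mice, so the groups carry no dose or time course.

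Values are linear signals, scaled so that the trimmed mean of each array is 500. Tests were made on log2 of the signal with limma, and p values were adjusted over all genes tested in a tissue by the method of Benjamini and Hochberg. A gene is said to have risen or fallen where the adjusted p was under 0.05. Age is the old control minus the young control, and CR and resveratrol are each compared with the same 5 old controls, so the 3 comparisons of a tissue share these arrays. A log2 change of 1 means a signal 2 times as high. The arrays of a group are from separate animals. In a piece of tissue, a gain or loss of cells of a type cannot be told apart from a change of RNA per cell.

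The 3 tissues carried the markers of their labels. In gastrocnemius the poly-A transcripts spiked into each sample gave a mean log2 signal of 7.18 ± 0.747 (SD, n = 5) in young controls and 6.55 ± 0.452 (SD, n = 5) in old controls, against 9.63 ± 0.486 (SD, n = 5) under CR and 9.68 ± 0.204 (SD, n = 5) under resveratrol, and neither diet overlapped either control group. In heart the 3′ minus 5′ difference of beta-actin, a sign of RNA integrity, was 1.39 ± 0.16 (SD, n = 5) on the log2 scale in old controls, above every array of the other groups, whose means were 0.719 to 0.819. In neocortex it was 0.546 ± 0.0641 (SD, n = 5) in old controls and 0.709 ± 0.0448 (SD, n = 5) and 0.887 ± 0.0939 (SD, n = 5) under CR and resveratrol, and old controls overlapped neither diet. The spiked transcripts there read 8.40 ± 0.258 (SD, n = 5) in old controls and 9.54 ± 0.246 (SD, n = 5) under resveratrol, without overlap. Under CR they read 8.83 ± 0.447 (SD, n = 5), which overlapped the old controls. Heart young control 1 and old control 4 and gastrocnemius young control 4 and old control 1 stood apart from their groups, and counts without them stand beside the counts for each tissue. Gastrocnemius CR replicate 2 had an SD of 0.67 around its group mean on the log2 scale and was kept in these counts. For gastrocnemius young control 4 and old control 1 that SD was 0.68 and 0.61. The part of these measures in the changes was not tested.

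The SLC25 family is the main set of transporters of the inner mitochondrial membrane. Its members move ATP, phosphate, organic acids, amino acids, acylcarnitines, nucleotides, cofactors and iron between the cytosol and the matrix, most of them by exchange of one solute for another. Heart and skeletal muscle are known for dense mitochondria and for the use of fatty acids, whereas neurons rely on shuttles of reducing equivalents and astrocytes on glutamate uptake. A few members sit elsewhere: Slc25a17 in peroxisomes and Slc25a46 in the outer mitochondrial membrane.

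Of the 44 genes, 41 had enough signal to be tested in at least 1 tissue, 40 in heart, 38 in gastrocnemius and 39 in neocortex. Slc25a31, the ADP/ATP carrier of germ cells, Slc25a41 and Slc25a54 were below the filter in all 3. The filter took the mean over all arrays of a tissue, so the tested genes are not all members. Of the 41, 33 changed in at least 1 of the 9 comparisons of age or diet, by the probe set that represents each gene. Slc25a2, Slc25a3, Slc25a15, Slc25a18, Slc25a26, Slc25a32, Slc25a45 and Slc25a53 did not pass the test in any. The plot of levels by tissue and the map of changes show all 41.

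Levels were compared between tissues. Heart and gastrocnemius differed in 31 of 41 genes (20 higher in heart), against 70.8% of all genes tested, heart and neocortex in 37 (22 higher in heart), against 85.1%, and gastrocnemius and neocortex in 32 (19 higher in gastrocnemius), against 86.4%. As shares of the members these are 75.6%, 90.2% and 78%, above that of all genes in the pairs with heart and below it in the last. The median difference of the members was 0.31 for heart over gastrocnemius and 0.55 for heart over neocortex on the log2 scale, against 0.06 over all genes in each case, and 0.08 against 0.09 for gastrocnemius over neocortex. Heart had the highest mean signal for 17 genes, gastrocnemius for 11 and neocortex for 13.

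Some carriers of glutamate and aspartate and of the uncoupling-protein-like group were bright in 1 tissue. Slc25a13 (citrin), an aspartate-glutamate carrier, had a mean signal (taken on the log scale over 20 arrays) of 4173 in heart, 106 in neocortex and 29.5 in gastrocnemius, where it was below the filter. Slc25a12 (aralar), the other aspartate-glutamate carrier, had 16300 in gastrocnemius, 8220 in heart and 3539 in neocortex. Thus citrin was 39.5-fold higher in heart than in the next tissue, and aralar was highest in muscle. Slc25a18, a glutamate carrier, had 1905 in neocortex and was below the filter in heart and gastrocnemius, at 50.5 and 49.7, and Slc25a22, the other glutamate carrier, was 3.47-fold higher in neocortex than in heart. Slc25a14, an uncoupling-protein-like carrier of the brain, had 2537 in neocortex, 105 in heart and 37.8 in gastrocnemius. By these mean signals, Slc25a18, Slc25a14 and Slc25a22 had the widest lead of neocortex over the next tissue.

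Gastrocnemius led by less: aralar 1.98-fold, the ornithine carrier Slc25a15 1.49-fold and the ATP-Mg/phosphate carrier Slc25a24 1.42-fold. In heart, Slc25a34, whose solute is not settled, led the next tissue 6.45-fold and Slc25a39, a glutathione carrier, 4.77-fold. The carnitine-acylcarnitine carrier Slc25a20, which brings fatty acids in for oxidation, had 10680 in heart, 3977 in gastrocnemius and 495 in neocortex. Slc25a4, the ADP/ATP carrier of muscle, followed the same order with 71760, 51280 and 15180, but of its 4 probe sets 2 were highest in gastrocnemius (1 of them at 13170, 42670 and 15960), so that the order of heart and muscle depends on the probe set. Slc25a5, the ADP/ATP carrier of most other cells, had 24630 in heart, 9616 in neocortex and 3668 in gastrocnemius, so that muscle was lowest for it.

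**Figure D1:**
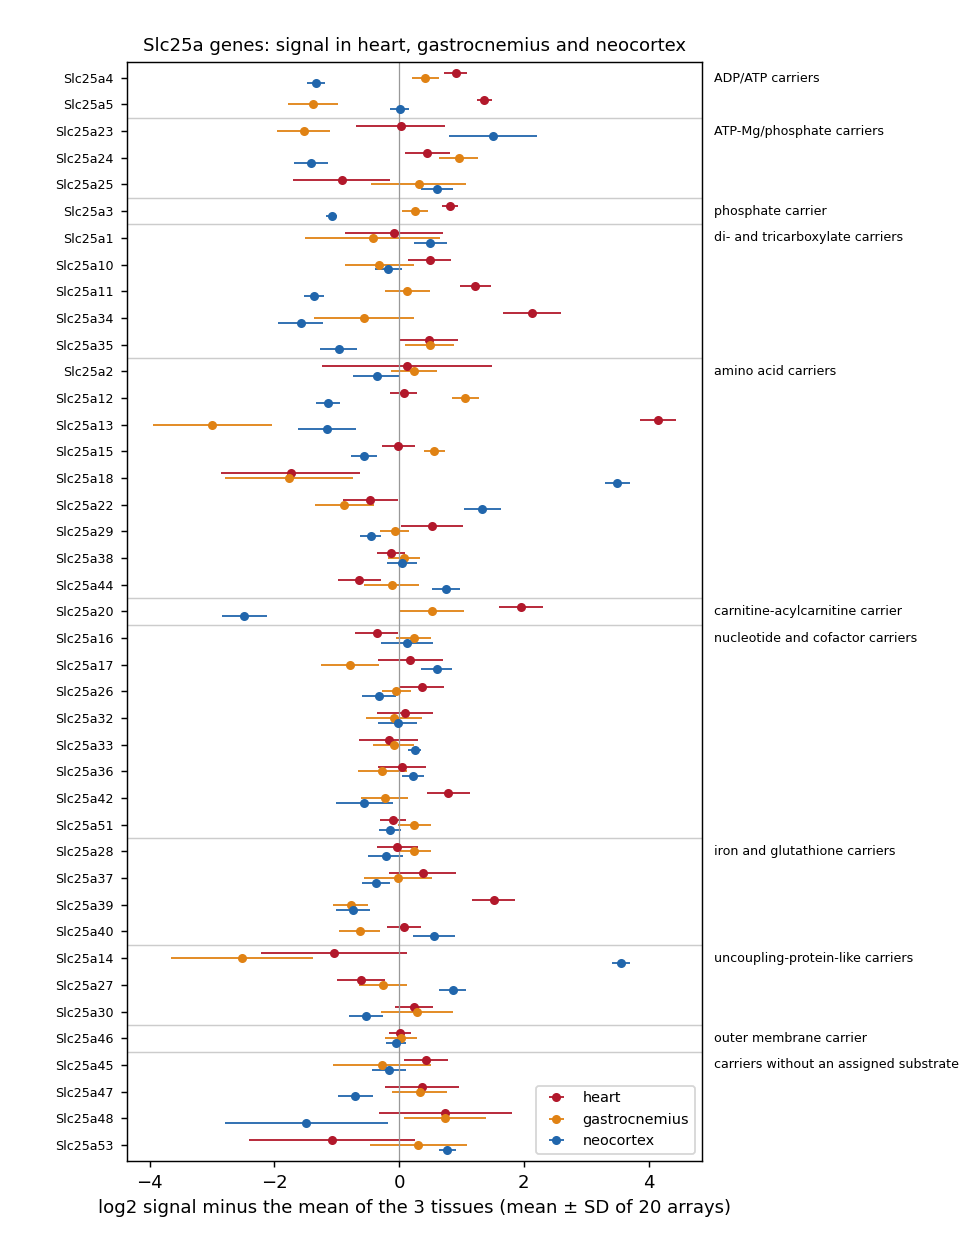
Each row is an Slc25a gene tested in at least 1 tissue, grouped by kind of carrier, with the mean log2 signal of 20 arrays per tissue relative to the mean of the 3 tissues (bars, SD over the 20 arrays). Slc25a13 stands furthest to the right in heart, and Slc25a18 and Slc25a14 in neocortex.

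The sequences just before the start of 5 genes are shown, since Slc25a23, Slc25a28 and Slc25a39 fell under each diet in heart and in neocortex, Slc25a33 rose under each diet in heart and Slc25a20 fell in heart and rose in neocortex under resveratrol, each by the probe set that represents the gene. They are the 250 bases upstream of the transcript start in RefSeq (GRCm38.p6), written 5′ to 3′ on the strand of the gene. Capitals mark the GC box (GGGCGG or CCGCCC), the CCAAT box (CCAAT or ATTGG), the E-box (CACGTG) and the ETS site (CCGGAAG or CTTCCGG).
Slc25a23, chr17:57059864-57060113, minus strand: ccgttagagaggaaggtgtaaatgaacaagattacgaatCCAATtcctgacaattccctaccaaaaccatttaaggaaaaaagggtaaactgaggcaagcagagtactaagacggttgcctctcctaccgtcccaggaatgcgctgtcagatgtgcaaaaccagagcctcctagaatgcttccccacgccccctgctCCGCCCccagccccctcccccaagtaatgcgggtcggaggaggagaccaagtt
Slc25a28, chr19:43674882-43675131, minus strand: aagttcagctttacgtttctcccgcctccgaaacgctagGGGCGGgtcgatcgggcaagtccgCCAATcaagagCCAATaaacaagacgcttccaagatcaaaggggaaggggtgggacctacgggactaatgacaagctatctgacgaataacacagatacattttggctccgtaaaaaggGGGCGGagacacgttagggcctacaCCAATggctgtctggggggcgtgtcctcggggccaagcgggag
Slc25a39, chr11:102407518-102407767, minus strand: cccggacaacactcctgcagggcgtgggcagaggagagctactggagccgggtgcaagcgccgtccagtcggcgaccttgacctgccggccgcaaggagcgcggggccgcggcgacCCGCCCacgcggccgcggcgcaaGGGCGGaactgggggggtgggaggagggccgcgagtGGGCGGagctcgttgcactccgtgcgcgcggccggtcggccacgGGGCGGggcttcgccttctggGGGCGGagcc
Slc25a33, chr4:149774268-149774517, minus strand: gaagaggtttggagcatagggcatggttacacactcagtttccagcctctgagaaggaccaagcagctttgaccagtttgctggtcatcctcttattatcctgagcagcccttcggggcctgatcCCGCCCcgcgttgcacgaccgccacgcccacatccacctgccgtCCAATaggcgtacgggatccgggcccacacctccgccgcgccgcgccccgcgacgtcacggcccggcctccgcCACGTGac
Slc25a20, chr9:108661886-108662135, plus strand: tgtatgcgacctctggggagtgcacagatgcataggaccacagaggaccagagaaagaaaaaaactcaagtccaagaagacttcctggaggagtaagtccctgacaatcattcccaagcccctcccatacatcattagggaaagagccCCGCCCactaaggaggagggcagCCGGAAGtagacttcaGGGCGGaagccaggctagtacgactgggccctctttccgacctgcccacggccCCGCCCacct

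Slc25a23 had 1 GC box and 1 CCAAT box, Slc25a28 had 2 and 3, and Slc25a39 had 5 GC boxes. Slc25a33 had 1 GC box, 1 CCAAT box and 1 E-box, and Slc25a20 had 3 GC boxes and 1 ETS site. Of the 44 genes, 34 were found in the RefSeq table of promoters, and 24 of these (70.6%) held a GC box, against 32.7% of all 32851 promoters of the same length. The CCAAT box was in 44.1% of member promoters and 33.8% of all, the E-box in 17.6% and 6.02%, the ETS site in 17.6% and 6.91%, and the TATA box (TATAAA or TTTATA) in 2.94% and 12.4%. The CRE (TGACGTCA) was in 2.94% and 1.55%, the consensus NRF1 site in 0% and 0.782%, and the half-site of nuclear receptors (AAGGTCA or TGACCTT) in 2.94% and 4.08%. The member promoters were reduced to 1 per gene and to genes of the array, and the 32851 were not. The 2 sets are thus unlike, and the gaps between their shares were not tested. Both strands were searched, and a match is a description of letters and not of binding.

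In heart, 8 of 40 members changed with age, against 10.8% of all genes. Slc25a20, Slc25a23, Slc25a28, Slc25a29, Slc25a34, Slc25a36 and Slc25a42 rose and Slc25a33 fell, 7 and 1 members against 7.05% and 3.79% of all genes. CR changed 11, against 22%, with 6 up and 5 down against 7.94% and 14.1%, and resveratrol changed 8, against 17.5%, with 1 up and 7 down against 7.08% and 10.5%. The share of members that changed was above that of all genes in each of the 3, a difference that was not tested. The median log2 change of the members was 0.05 with age, 0.03 under CR and -0.05 under resveratrol, and that of all genes was 0.03, 0.00 and 0.01. Without the 2 arrays that stood apart, 13 members changed under CR and 10 under resveratrol, with no share of all genes given here for that setting. For age the count was again 8, now 4 up and 4 down, of which 5 were among those above, and Slc25a23, Slc25a29 and Slc25a42 had adjusted p values of 0.0803, 0.0622 and 0.114.

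In gastrocnemius, Slc25a25 fell with age and was the only one of 38 members that changed, against 0.429% of all genes. CR raised 11 members and lowered 5, 16 in all against 31.2%, or 17.5% and 13.6% by direction. Resveratrol raised Slc25a40 and lowered Slc25a17 and Slc25a44, 3 in all against 18.7%, or 9.42% and 9.26% by direction. The share of members was thus above that of all genes under CR and below it under resveratrol. The median log2 change of the members was 0.03 with age, 0.05 under CR and 0.01 under resveratrol, and that of all genes was 0.03, 0.10 and 0.07. Without the 2 arrays that stood apart, 1 member changed with age, 15 under CR and 7 under resveratrol. The shares of all genes without these arrays are not given here, so these counts are not set against them.

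In neocortex 0 of 39 members changed with age in limma, with 5 at an unadjusted p under 0.05 and a lowest adjusted p of 0.224, and 1.46% of all genes did (1.08% up). CR raised 10 members and lowered 9, against 30.6% of all genes in either direction and 13.1% and 17.5% in each. Resveratrol raised 4 and lowered 8, against 26.2% in either direction and 12.3% and 13.9% in each. The median log2 change of the members was 0.02, 0.02 and -0.01 for age, CR and resveratrol, and that of all genes 0.02, -0.03 and -0.01.

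Full separation of the arrays of 2 groups was counted too. Old and young controls did not overlap for 6 members in heart, 2 in gastrocnemius and 0 in neocortex, against 9.29%, 3.67% and 3.58% of all genes. CR and old controls did not overlap for 9, 7 and 14 members, against 19%, 18.8% and 19.8%. Resveratrol and old controls did not overlap for 10, 6 and 7 members, against 15.1%, 18% and 18.5%.

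Lists of cell type markers moved in the same arrays. In heart, 3 of 5 markers of atrial muscle rose under CR and 5 of 5 under resveratrol, with a sum of 72637 to 158140 in old controls, 147530 to 188840 under CR and 166400 to 209210 under resveratrol. Of 8 macrophage markers, 5 rose in heart under CR and 6 under resveratrol, and of 5 hepatocyte markers 4 and 2 did, with sums for the latter of 469.8 to 687, 2952 to 4650.2 and 719 to 4904. In gastrocnemius, 4 of 5 endothelial markers fell under each diet, 3 of 8 macrophage markers rose under each, and 3 of 4 brown adipocyte markers (Cidea, Dio2 and Ppargc1a) rose under CR. Ppargc1a is Pgc-1α, whose mRNA the study reports as raised by CR in skeletal muscle. The list thus does not stand for brown fat alone. None of 6 slow fibre markers rose in gastrocnemius, and 1 fell under CR and 2 under resveratrol. In neocortex, 4 of 7 macrophage markers rose with age, and 2 fell under CR and 3 rose under resveratrol. Their part in the changes of the carriers was not tested.

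**Figure D2:**
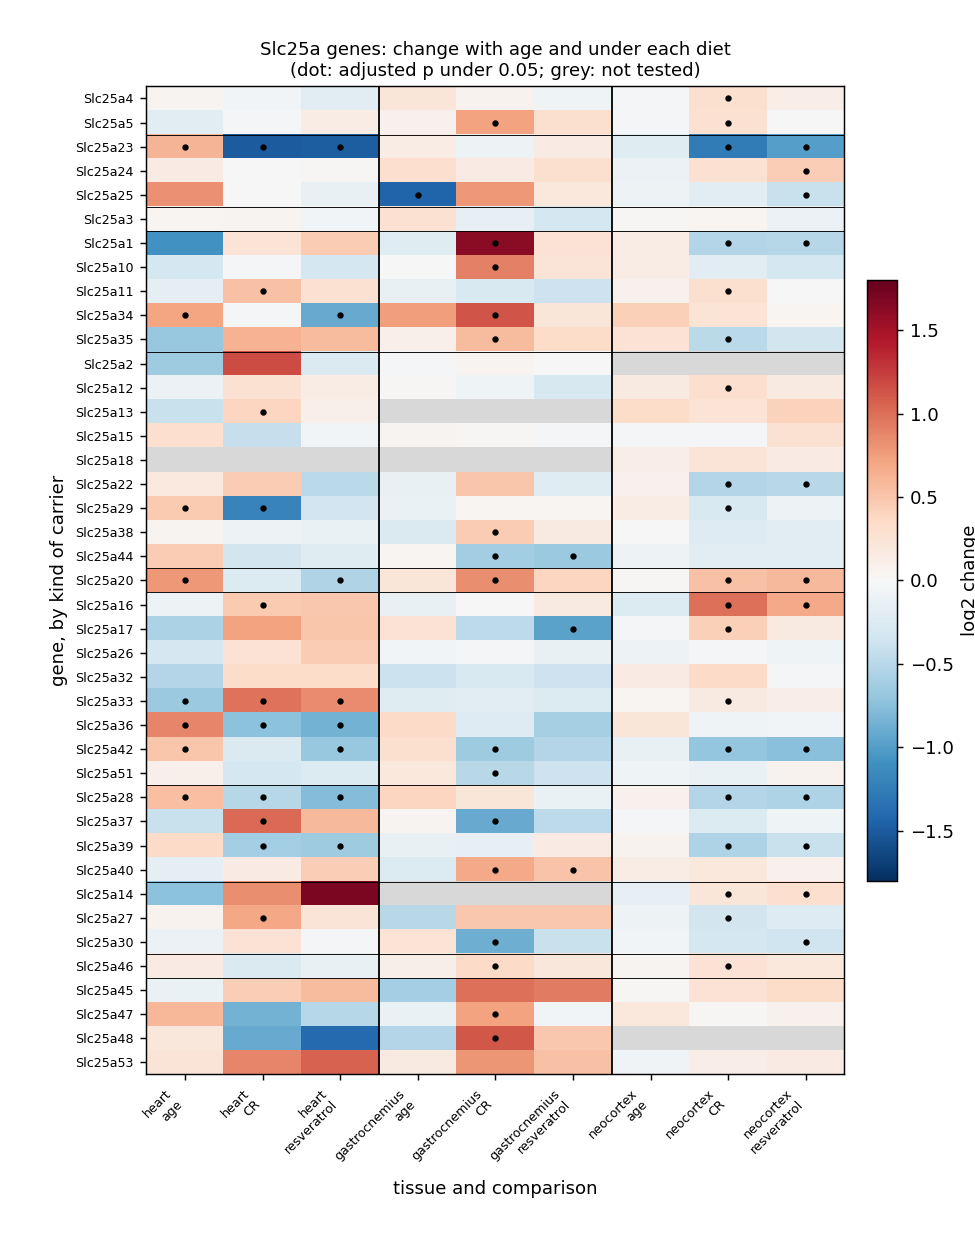
Log2 changes of the 41 tested Slc25a genes (rows, by kind of carrier) for age, CR and resveratrol in each tissue (columns), with a dot where the adjusted p was under 0.05 and grey where the gene was not tested. Slc25a23, Slc25a28 and Slc25a39 are blue with a dot in all 4 diet columns of heart and neocortex, and the neocortex age column has no dot.

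The ADP/ATP carriers export the ATP made in the matrix, and the phosphate carrier supplies its substrate. By the probe set that represents each gene, none of them passed the test in heart or with age. Of the 2 ADP/ATP carriers, 1 rose in gastrocnemius and both in neocortex, under CR in each case. In neocortex the Slc25a4 signal was 14189.5, 13673, 15158, 13559 and 13866 in old controls, and 18029.5, 17403, 17649, 17665 and 15715 under CR. All 5 arrays under CR were above all old controls (log2 change 0.30 ± 0.06 (SE), adjusted p = 0.000781). Under resveratrol it was 15551, 14598, 13991, 15028 and 17821, which overlaps the old controls (log2 change 0.12 ± 0.06 (SE), adjusted p = 0.141). Other probe sets of Slc25a4 did rise there under resveratrol, by 0.61 at a mean signal of 133 and by 0.18 at a mean signal of 15960. The first of these also rose under CR in gastrocnemius (log2 change 0.75). With age the log2 change of Slc25a4 was 0.05 in heart, 0.21 in gastrocnemius and -0.02 in neocortex, none past the test, and another of its probe sets rose with age in heart (log2 change 0.46).

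Slc25a5 rose under CR in muscle and neocortex. In gastrocnemius its signal was 2565, 3243, 3674, 2862 and 3378 in old controls, and 3829, 7483, 5688, 4443 and 5052 under CR. The 2 groups did not overlap (log2 change 0.73 ± 0.15 (SE), adjusted p = 0.00145). Under resveratrol it was 3325, 3855, 3239, 4059 and 4822, with 0.29 (adjusted p = 0.194) on the log2 scale. In neocortex it was 9359, 8662, 10679, 8533 and 8619 in old controls, 12261, 10743, 10843, 11376 and 9918 under CR, and 9185, 8971, 8169.9, 9544 and 9909 under resveratrol. CR was above resveratrol on every array (log2 change 0.27 ± 0.07 (SE), adjusted p = 0.0207), a call that was lost without CR replicate 1 or resveratrol replicate 3 (adjusted p up to 0.0584), and CR overlapped the old controls (log2 change 0.27 ± 0.07 (SE), adjusted p = 0.0059). Of the 8 probe sets of Slc25a5, 7 rose under CR in gastrocnemius. Under resveratrol 2 rose there (log2 changes of 0.80 and 1.02), 2 rose in neocortex (0.41 and 0.44) and 4 rose in heart (0.28 to 0.62). In heart 1 fell with age (-0.31), and 2 were lower under CR than under resveratrol (-0.37 and -0.67). For CR minus resveratrol in neocortex, 3 of the 7 others were below 0 (-0.16, -0.01 and -0.31), and the mean of the probe sets gave 0.095 (adjusted p = 0.503). Most of the 8 carry the x_at suffix of the maker, which marks probe sets that can share sequence with other transcripts. Slc25a3, the phosphate carrier, had log2 changes from -0.32 to 0.27 over the 9 comparisons, with no call, and another probe set of it fell under resveratrol in gastrocnemius (log2 change -1.0, adjusted p = 0.0144) and under both diets in neocortex.

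The ATP-Mg/phosphate carriers adjust the pool of adenine nucleotides in the matrix and are opened by calcium. Of the 3 tested, 1 rose with age and fell under each diet in heart, and 1 fell with age in gastrocnemius. In neocortex 1 fell under CR, and 2 fell and 1 rose under resveratrol. Under both diets, Slc25a23 had the largest fall among the called members of heart and of neocortex. In heart its signal was 671, 952, 636, 584 and 654 in young controls, 1099.5, 1407, 861, 945 and 1019.9 in old controls, 287, 485, 311, 495 and 328 under CR, and 507, 484, 299.9, 278 and 375 under resveratrol. Old controls were above every array of both diets. The log2 change was -1.50 ± 0.20 (SE, adjusted p = 6.85e-06) under CR and -1.48 ± 0.20 (SE, adjusted p = 1.24e-05) under resveratrol. With age it had risen (log2 change 0.61 ± 0.20 (SE), adjusted p = 0.0489), a call that was lost when young control 1, 3, 4 or 5 or old control 1, 2, 4 or 5 was left out, with an adjusted p of up to 0.137.

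In neocortex Slc25a23 was 1809, 2577, 2752, 2999 and 3182 in young controls, 2253, 2414, 1628, 2272 and 2789.8 in old controls, 836, 875, 900.1, 1145 and 962 under CR, and 933, 1229.5, 1685, 1084 and 876 under resveratrol. CR lay below all old controls (log2 change -1.25 ± 0.16 (SE), adjusted p = 6.4e-06), and 4 of the 5 resveratrol arrays did (log2 change -0.99 ± 0.16 (SE), adjusted p = 0.000111). Young and old controls overlapped (log2 change -0.22 ± 0.16 (SE), adjusted p = 0.577). In gastrocnemius, where the gene was dimmer, the signal was 206, 206, 146, 239 and 118 in young controls, 176, 247, 219, 142 and 207 in old controls, 221, 91.3, 296, 154 and 222 under CR, and 219.7, 216, 261, 158 and 239 under resveratrol. All 4 groups of muscle overlapped, and the log2 change was -0.09 (adjusted p = 0.824) under CR and 0.15 (adjusted p = 0.746) under resveratrol. The effect of CR differed between heart and gastrocnemius by -1.41 ± 0.32 (SE, adjusted p = 0.000599), and between gastrocnemius and neocortex by 1.16 ± 0.32 (SE, adjusted p = 0.00514).

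**Figure D3:**
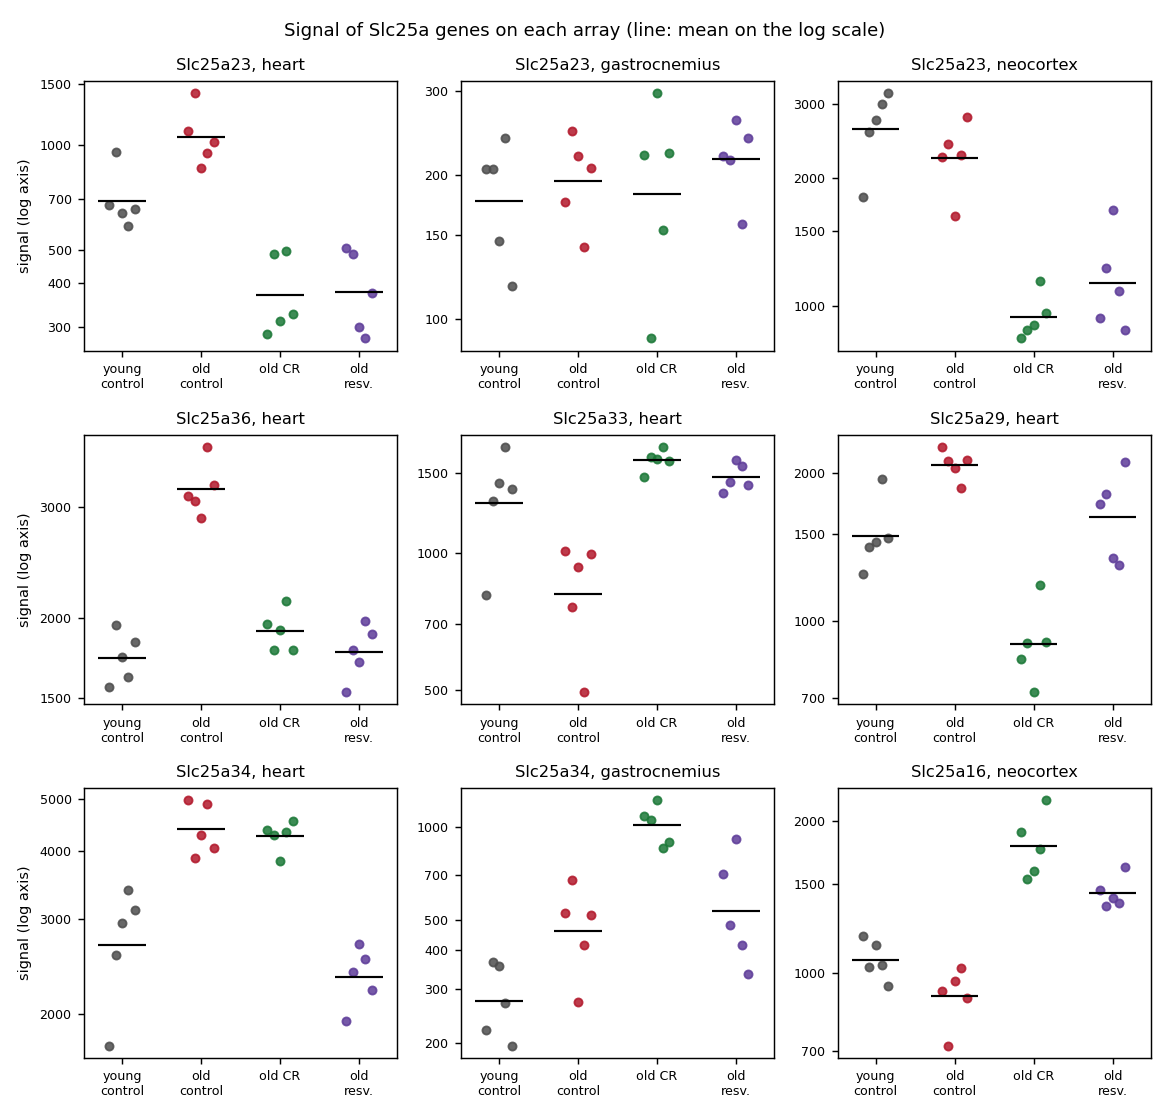
Signal on each array (log axis, line at the mean on the log scale, 5 arrays per group) for Slc25a23 in 3 tissues, for Slc25a36, Slc25a33 and Slc25a29 in heart, for Slc25a34 in heart and gastrocnemius and for Slc25a16 in neocortex. Old controls of heart stand above both diets for Slc25a23 and Slc25a36 and below them for Slc25a33, and Slc25a34 is low under resveratrol in heart and high under CR in gastrocnemius.

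Slc25a25, another ATP-Mg/phosphate carrier, fell with age in muscle. Its signal there was 535, 2004, 1265, 571 and 621 in young controls, 217, 295, 324, 512 and 313 in old controls, 645, 638, 398, 537 and 577 under CR, and 584, 273, 367, 319 and 338 under resveratrol. Every young array was above every old control (log2 change -1.43 ± 0.31 (SE), adjusted p = 0.0326), and young controls 2 and 3 were far above the rest. This was the only call of the family for age in muscle, and it was lost without young control 2 or 3 or old control 1, 2, 3 or 5, with an adjusted p of up to 0.115. Under CR the log2 change was 0.79 (adjusted p = 0.0547), and under resveratrol 0.18 (adjusted p = 0.716). Another probe set fell with age (log2 change -1.87, adjusted p = 0.0302) and rose under CR (log2 change 2.33, adjusted p = 0.000231) and resveratrol (log2 change 1.83, adjusted p = 0.00305), with a mean signal of 111 over the tissue. In heart Slc25a25 was 158, 168, 92.2, 56.2 and 359 in young controls, and 271, 298, 148, 257 and 273 in old controls, which overlapped, and its age effect differed from that of muscle by 2.25 ± 0.47 (SE, adjusted p = 0.00151). In neocortex it fell under resveratrol (log2 change -0.40 ± 0.12 (SE), adjusted p = 0.0129). Slc25a24 rose under resveratrol in neocortex (log2 change 0.45, adjusted p = 0.0497), a call lost without any 1 of the old controls or without resveratrol replicate 2, 3 or 4, with an adjusted p of up to 0.162.

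The di- and tricarboxylate carriers link the citric acid cycle to fat synthesis and to the malate-aspartate shuttle. In gastrocnemius 4 of 5 rose under CR, with a median log2 change of 0.91, and 0 passed under resveratrol, with a median of 0.23. In neocortex 1 rose and 2 fell under CR. Slc25a1, the citrate carrier, which feeds fat synthesis, had a signal of 304, 928, 522, 231 and 336 in young controls, 127, 224, 674, 792 and 359.8 in old controls, 1018, 3100.1, 1660.3, 354 and 819.8 under CR, and 342, 344, 288, 726 and 559.8 under resveratrol. CR overlapped the old controls and held the highest value, on replicate 2 (log2 change 1.62 ± 0.51 (SE), adjusted p = 0.0214). The call was lost without old control 1 or 2 or CR replicate 2 or 3, with an adjusted p of up to 0.0653. On the same arrays Adipoq, an adipocyte hormone, read 2636, 2734, 5423, 3319.9 and 3459 in old controls, and 4752, 25967, 9815, 1656 and 3990.0 under CR, and the summed signal of the 4 white adipocyte markers was 3442 to 7276 in old controls and 2795 to 38488 under CR. CR replicate 2 was the highest array for Adipoq as for Slc25a1. Of the 4 markers, 0 were below the filter in old controls and 1 under CR. Their part in the change of Slc25a1 was not tested.

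Slc25a10, the dicarboxylate carrier, rose under CR in gastrocnemius (log2 change 0.91 ± 0.26 (SE), adjusted p = 0.0117), as did Slc25a35 (log2 change 0.56 ± 0.20 (SE), adjusted p = 0.0355), both with groups that overlapped. The latter call was lost without old control 1, 4 or 5 or CR replicate 1, 2 or 3, with an adjusted p of up to 0.0908. Slc25a34 was 221, 367, 356, 269.8 and 197 in young controls, 528, 674, 272, 416 and 519 in old controls, 1082, 1054, 1217, 856 and 891 under CR, and 707, 482, 913, 417 and 335 under resveratrol in that tissue. CR was above all controls (log2 change 1.13 ± 0.26 (SE), adjusted p = 0.00249), and resveratrol overlapped the old controls (log2 change 0.21 ± 0.26 (SE), adjusted p = 0.607). In neocortex Slc25a1 fell under both diets, with log2 changes of -0.53 ± 0.09 (SE, adjusted p = 8.19e-05) for CR and -0.51 ± 0.09 (SE, adjusted p = 0.000158) for resveratrol. Its signal there was 1055, 1313, 1070.2, 1193 and 1286 in old controls, 979.5, 758, 731, 803 and 838 under CR, and 787, 928, 849, 803 and 788 under resveratrol. The old controls were above all diet arrays. The CR effect on Slc25a1 thus differed between gastrocnemius and neocortex by 2.15 ± 0.58 (SE, adjusted p = 0.00504).

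In heart Slc25a34 behaved differently under the 2 diets. Its signal was 1746, 2571, 2948, 3396 and 3113 in young controls, 4972, 3895, 4297, 4894 and 4051 in old controls, 4389, 4286, 3832, 4347 and 4563 under CR, and 1943, 2393, 2696, 2529 and 2216 under resveratrol. It rose with age (log2 change 0.71 ± 0.13 (SE), adjusted p = 0.000979) and fell under resveratrol to below all old controls (log2 change -0.91 ± 0.13 (SE), adjusted p = 3.12e-05). CR overlapped the old controls (log2 change -0.04 ± 0.13 (SE), adjusted p = 0.865). CR and resveratrol differed directly, without overlap (log2 change 0.87 ± 0.13 (SE), adjusted p = 0.000393). Slc25a11, the oxoglutarate carrier of the malate-aspartate shuttle, rose under CR in heart from 14577, 13606, 12411, 11389 and 12963 in old controls to 17765, 20291, 19185, 18181 and 17571, without overlap (log2 change 0.52 ± 0.11 (SE), adjusted p = 0.00086). It also rose under CR in neocortex (log2 change 0.28 ± 0.07 (SE), adjusted p = 0.00201) and was higher there than under resveratrol (log2 change 0.29 ± 0.07 (SE), adjusted p = 0.00799). In gastrocnemius its log2 change under CR was -0.27 (adjusted p = 0.271).

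The amino acid carriers supply the urea cycle, the malate-aspartate shuttle and heme synthesis. Under CR, 1 rose and 1 fell of 8 tested in heart, 1 rose and 1 fell of 7 in gastrocnemius, and 1 rose and 2 fell of 8 in neocortex. Slc25a29, a carrier of basic amino acids, had a heart signal of 1249.6, 1417, 1448, 1940.1 and 1475 in young controls, 2256, 2112, 2044, 1859 and 2118 in old controls, 839.5, 904, 719, 1183 and 908 under CR, and 1727, 1809, 1344, 1298 and 2100.0 under resveratrol. Every CR array was below every array of the other 3 groups. CR lowered it against old controls (log2 change -1.21 ± 0.14 (SE), adjusted p = 1.49e-06) and against resveratrol (log2 change -0.86 ± 0.14 (SE), adjusted p = 0.000869). The change under resveratrol was -0.35 (adjusted p = 0.0934), and the rise with age was 0.48 (adjusted p = 0.0297), with young control 4 inside the old range. The age call was lost without young control 1, 2 or 3 or old control 1, 2, 3 or 5, with an adjusted p of up to 0.0712. All 5 probe sets of Slc25a29 were lower under CR in heart, 4 of them past the test. In neocortex it fell under CR (log2 change -0.28, adjusted p = 0.0309), a call lost without old control 1, 3 or 4 or CR replicate 2 or 3 (adjusted p up to 0.09), and in gastrocnemius the change was 0.04 (adjusted p = 0.876). The CR effect in heart differed from that in gastrocnemius by -1.24 ± 0.19 (SE, adjusted p = 2.09e-06) and from that in neocortex by -0.93 ± 0.19 (SE, adjusted p = 0.000906).

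Both aspartate-glutamate carriers rose under CR, each in the tissue where it passed: citrin (Slc25a13) in heart (log2 change 0.38 ± 0.14 (SE), adjusted p = 0.0495), with overlap, and aralar (Slc25a12) in neocortex (log2 change 0.30 ± 0.07 (SE), adjusted p = 0.00173), without. The citrin call was lost without old control 2, 3, 4 or 5 or CR replicate 2, 3, 4 or 5, with an adjusted p of up to 0.146. For age in neocortex, where no member passed, Slc25a12 had one of the lowest p values, with 3034, 2785, 3150.1, 2866 and 3237 in young controls, and 3722, 3324, 3603, 3219.6 and 2998 in old controls. These groups overlapped, and the log2 change was 0.16 (adjusted p = 0.245). Slc25a22, a glutamate carrier, fell in neocortex under CR (log2 change -0.53 ± 0.10 (SE), adjusted p = 0.000433) and resveratrol (log2 change -0.51 ± 0.10 (SE), adjusted p = 0.000814). In heart its signal was 777, 747, 633, 852 and 745 in old controls, 1154, 1104, 951, 826 and 1156 under CR, and 364, 448, 627, 620.4 and 685 under resveratrol. CR was above resveratrol on all arrays (log2 change 0.95 ± 0.18 (SE), adjusted p = 0.00222), and neither diet passed against old controls. Slc25a18 of neocortex, at 1778, 1719, 1749.7, 2084 and 1815 in old controls, and 2115, 2069.5, 2415, 2114 and 1999 under CR, overlapped (log2 change 0.23 ± 0.10 (SE), adjusted p = 0.0751).

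Slc25a44, a carrier of branched-chain amino acids, read 448, 768, 591, 697 and 633 in old controls, 442, 306, 501, 411 and 372 under CR, and 443, 373, 444, 304 and 392 under resveratrol in gastrocnemius. Resveratrol lay below all old controls (log2 change -0.67 ± 0.20 (SE), adjusted p = 0.0202), and so did CR except on replicate 3 (log2 change -0.62 ± 0.20 (SE), adjusted p = 0.0211). The CR call was lost without old control 2 or CR replicate 2, and the resveratrol call without old control 2 or 4 or resveratrol replicate 4, with adjusted p values up to 0.0598. Another probe set of Slc25a44 rose under CR in the same arrays (log2 change 0.84, adjusted p = 0.00724). Slc25a38, the glycine carrier of heme synthesis, rose under CR in gastrocnemius (log2 change 0.45 ± 0.15 (SE), adjusted p = 0.0232), a call lost without old control 1 or 2, with an adjusted p of up to 0.0671. The ornithine carriers Slc25a2 and Slc25a15 did not pass in any comparison, with log2 changes of Slc25a15 from -0.41 to 0.30 over 9 comparisons.

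The carnitine-acylcarnitine carrier Slc25a20 rose with age in heart, and its representing probe set fell under resveratrol in heart and rose in neocortex. In heart its signal was 5496, 7598, 9273, 9894 and 9309.9 in young controls, 14283, 11367, 13882, 15783 and 15066 in old controls, 11454, 12095, 12230, 12045 and 11462 under CR, and 8917, 9659, 10368, 10240.5 and 9138 under resveratrol. Old controls were above all young arrays (log2 change 0.78 ± 0.12 (SE), adjusted p = 0.000129) and above all resveratrol arrays (log2 change -0.54 ± 0.12 (SE), adjusted p = 0.00236). CR overlapped them (log2 change -0.24 ± 0.12 (SE), adjusted p = 0.157). In neocortex it was 373, 382, 494, 467 and 330.1 in young controls, 432, 327, 346, 479 and 498 in old controls, 525, 562, 713, 575 and 591 under CR, and 498, 662, 730.0, 648 and 562 under resveratrol. All CR arrays were above old controls (log2 change 0.52 ± 0.14 (SE), adjusted p = 0.00515), and so were those of resveratrol except replicate 1, which met the highest old control (log2 change 0.58 ± 0.14 (SE), adjusted p = 0.00258). In gastrocnemius it was 2527, 2941, 2819, 3961 and 2383 in young controls, 5406, 3029, 2617, 2953 and 3315 in old controls, 5497, 9423, 5206, 5239 and 5330.2 under CR, and 4640.1, 4422, 5285, 4412 and 3272 under resveratrol, with old control 1 inside the CR range. Under CR it rose (log2 change 0.83 ± 0.20 (SE), adjusted p = 0.00318). The age effect differed between heart and neocortex by 0.76 ± 0.23 (SE, adjusted p = 0.0381), a call lost without heart old control 1, 4 or 5, heart young control 1 or 2, neocortex old control 2 or 3 or neocortex young control 3 or 4 (adjusted p up to 0.101).

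The 2 probe sets of Slc25a20 moved the same way under resveratrol in heart and apart under both diets in muscle and neocortex. The one that does not represent the gene fell under CR (log2 change -0.46, adjusted p = 0.00695) and under resveratrol (log2 change -0.94, adjusted p = 2.27e-05) in gastrocnemius, whereas the one that does had log2 changes of 0.83 and 0.38. In neocortex the former gave -0.23 under CR and -0.20 under resveratrol, neither past the test, against 0.52 and 0.58, and the mean of both gave 0.15 (adjusted p = 0.334) and 0.19 (adjusted p = 0.231). The direction under the diets in muscle and neocortex depends on the probe set, and the probe set that does not represent the gene carries the s_at suffix of probe sets that match several transcripts. In heart under resveratrol this probe set fell too (log2 change -0.38, adjusted p = 0.0413). Cpt1a, which forms the acylcarnitines at the outer membrane, rose under CR in heart (log2 change 1.35 ± 0.13 (SE), adjusted p = 1.03e-07) and fell with age (log2 change -0.64 ± 0.13 (SE), adjusted p = 0.0023), and Cpt2, which reverses the step in the matrix, fell under CR (log2 change -0.40 ± 0.13 (SE), adjusted p = 0.0263).

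**Figure D4:**
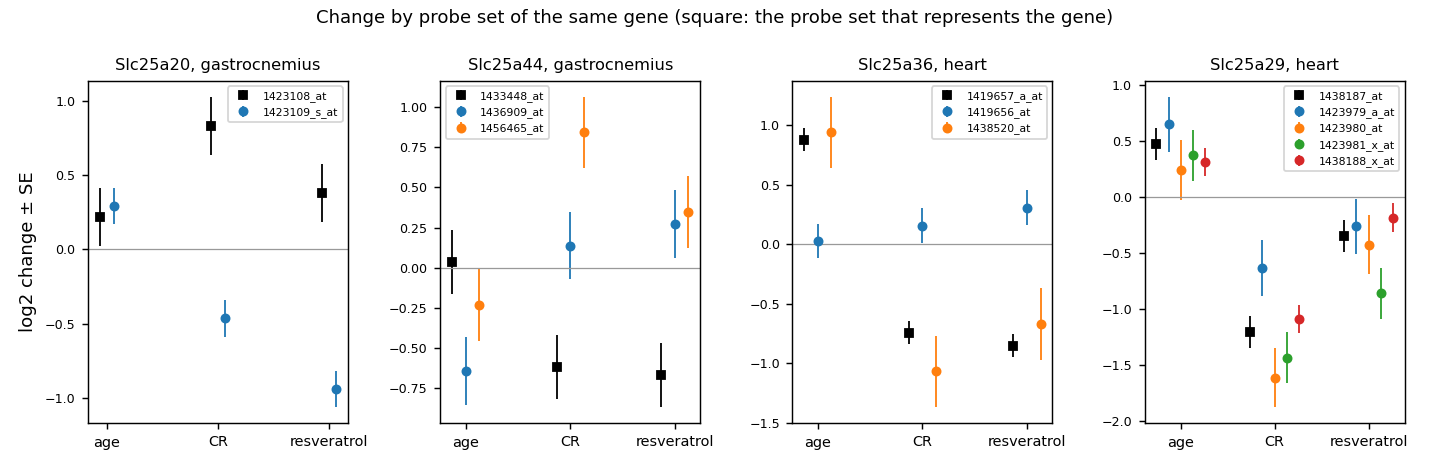
Log2 change (± SE) of each tested probe set of Slc25a20 and Slc25a44 in gastrocnemius and of Slc25a36 and Slc25a29 in heart, for age, CR and resveratrol, with the probe set that represents the gene as a square. The probe sets of Slc25a29 fall together under CR, and those of Slc25a20 and Slc25a44 lie on both sides of 0.

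Carriers of nucleotides and cofactors supply the matrix with pyrimidine nucleotides for its own DNA and RNA, with coenzyme A and with NAD. Of the 8 tested in heart, 2 rose and 1 fell with age, 2 rose and 1 fell under CR and 1 rose and 2 fell under resveratrol. In gastrocnemius 2 fell under CR and 1 under resveratrol, and in neocortex 3 rose and 1 fell under CR. Slc25a36, a pyrimidine nucleotide carrier, had the largest log2 change with age in heart among the called Slc25a genes. Its signal was 1560.0, 1953, 1741, 1615 and 1837 in young controls, 3118, 3063, 2881, 3734 and 3256 in old controls, 1960.5, 1786, 1915, 2133 and 1785 under CR, and 1531, 1782, 1708, 1981 and 1894 under resveratrol. The old controls were above all 15 arrays of the other groups, and the latter overlapped each other. The log2 change was 0.88 ± 0.10 (SE, adjusted p = 2.77e-06) with age, -0.74 ± 0.10 (SE, adjusted p = 5.43e-06) under CR and -0.85 ± 0.10 (SE, adjusted p = 1.74e-06) under resveratrol. Another probe set rose with age (log2 change 0.94, adjusted p = 0.0416) and fell under CR (log2 change -1.07, adjusted p = 0.0127), and the last of the 3 gave 0.03 (adjusted p = 0.938) for age, 0.16 under CR and 0.31 under resveratrol. In gastrocnemius and neocortex no change of this probe set passed, with 0.34 and 0.22 for age. Other probe sets of Slc25a36 did: 1 fell in gastrocnemius under CR (log2 change -0.75, adjusted p = 0.0146) and resveratrol (log2 change -0.81, adjusted p = 0.0128), and 1 rose in neocortex under resveratrol (log2 change 0.39, adjusted p = 0.0479).

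Slc25a33, the other pyrimidine nucleotide carrier, moved opposite to Slc25a36 in heart. Its signal was 809, 1300.4, 1426, 1714 and 1385 in young controls, 1014, 763, 933, 496 and 998 in old controls, 1471, 1631, 1609, 1711 and 1594 under CR, and 1356, 1435, 1600.0, 1559 and 1416 under resveratrol. Old controls were below every array of both diets, and young control 1 was inside their range. On the log2 scale the change was -0.66 ± 0.17 (SE, adjusted p = 0.014) with age, 0.98 ± 0.17 (SE, adjusted p = 0.0002) under CR and 0.85 ± 0.17 (SE, adjusted p = 0.00107) under resveratrol. In gastrocnemius it was 1105, 1156, 1549.8, 1498 and 1639 in old controls, 1187, 1568, 1166, 889.8 and 1332 under CR, and 1363, 1209, 807, 941 and 1629 under resveratrol, which overlapped. The log2 change was -0.18 (adjusted p = 0.454) under CR and -0.25 (adjusted p = 0.354) under resveratrol. In neocortex CR raised it by 0.16 (adjusted p = 0.0485), a call that was lost without any 1 of the 10 arrays but old control 3, with an adjusted p of up to 0.135.

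Slc25a16, a carrier linked to coenzyme A, rose in neocortex under both diets. Its signal there was 1184, 1024, 1132, 1038 and 941 in young controls, 921, 717, 963, 1024 and 892 in old controls, 1899.8, 1529, 1592, 1758 and 2192 under CR, and 1454, 1354, 1406, 1376 and 1620.3 under resveratrol. All 10 diet arrays were above all 10 controls. On the log2 scale it rose by 0.99 ± 0.10 (SE, adjusted p = 3.64e-07) under CR and 0.68 ± 0.10 (SE, adjusted p = 3.27e-05) under resveratrol. In heart it rose under CR (log2 change 0.47, adjusted p = 0.048), a call lost without old control 1, 3, 4 or 5 or CR replicate 1, 3 or 4 (adjusted p up to 0.158), and in gastrocnemius the log2 change was -0.01 (adjusted p = 0.963). Slc25a42, which exchanges coenzyme A for adenine nucleotides, fell in neocortex. Its signal was 655, 745, 594, 692 and 843 in old controls, 422, 535, 319.7, 500.2 and 428 under CR, and 413, 476, 424, 363 and 402 under resveratrol there. Both diets were below all old controls, with log2 changes of -0.69 ± 0.13 (SE, adjusted p = 0.000387) under CR and -0.76 ± 0.13 (SE, adjusted p = 0.000177) under resveratrol. With its probe sets averaged the values were -0.09 (adjusted p = 0.863) and -0.17 (adjusted p = 0.741). The probe set averaged in had a mean signal of 50.1 in neocortex, below the filter. In heart Slc25a42 rose with age (log2 change 0.50, adjusted p = 0.0252), a call lost without young control 1 or old control 4 or 5 (adjusted p up to 0.0651), and fell under resveratrol (log2 change -0.68, adjusted p = 0.00146), and in gastrocnemius it fell under CR (log2 change -0.64, adjusted p = 0.0143).

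Slc25a17, the peroxisomal carrier of cofactors, read 248, 161, 253, 158 and 308 in young controls, 314, 257, 243, 253 and 250.5 in old controls, 172, 206, 201, 151 and 222 under CR, and 99.1, 194, 137, 109 and 151 under resveratrol in gastrocnemius. Resveratrol was below all old controls (log2 change -0.97 ± 0.22 (SE), adjusted p = 0.00376), and old control 1 stood above the rest of its group. With the probe sets of the gene averaged the value turned to 0.20, but the probe set averaged in had a mean signal of 40.2 in gastrocnemius, below the filter. CR was lower too, without overlap, but did not pass (log2 change -0.48 ± 0.22 (SE), adjusted p = 0.1). In neocortex Slc25a17 rose under CR (log2 change 0.43 ± 0.11 (SE), adjusted p = 0.00537). By its representing probe set, Slc25a51, the NAD carrier, fell under CR in gastrocnemius (log2 change -0.50 ± 0.13 (SE), adjusted p = 0.0071) and passed nowhere else. Another probe set, with a mean signal of 2679 there against 2395, gave 0.11 and did not pass, and the mean of the probe sets was 0.45. That other probe set fell under CR in heart (log2 change -0.31). A dim one, at a mean signal of 76.9, rose under resveratrol in gastrocnemius (log2 change 2.19). Slc25a26, which brings in S-adenosylmethionine, and Slc25a32, a folate carrier, did not pass in any tissue by their representing probe sets. Another probe set of Slc25a26 rose under resveratrol in heart (log2 change 0.70), where the representing one gave 0.46.

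The mitoferrins bring iron into the matrix for heme and iron-sulfur clusters, and Slc25a39 and Slc25a40 bring in glutathione. Of these 4, 2 fell under each diet in heart and in neocortex, and in heart 1 rose under CR. Slc25a28 (mitoferrin 2), the form of most tissues, fell under both diets in heart and neocortex. In heart its signal was 1262, 1561, 1118, 1232 and 1252 in young controls, 1628, 1981, 1714, 2287 and 1744 in old controls, 1381, 1154, 1251, 1346 and 1373 under CR, and 1162, 1143, 1073, 1005 and 1036 under resveratrol. Old controls were above all arrays of the other 3 groups. It changed on the log2 scale by 0.54 (adjusted p = 0.00195) with age, -0.52 (adjusted p = 0.00116) under CR and -0.78 (adjusted p = 1.92e-05) under resveratrol. In neocortex it was 1505, 1468, 1385, 1354 and 1552 in old controls, 937, 999, 953, 1231 and 939 under CR, and 952, 989.9, 1061, 915 and 1018 under resveratrol, again without overlap of old controls and diets. The log2 change was -0.53 (adjusted p = 6.35e-05) under CR and -0.56 (adjusted p = 4.74e-05) under resveratrol. In gastrocnemius it was 1346, 1315, 1328, 1326 and 1197 in young controls, and 1626, 1736, 1549, 1614 and 2054 in old controls. These groups did not overlap, yet the change with age did not pass (log2 change 0.39, adjusted p = 0.142), and no diet change did.

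By its representing probe set, Slc25a39 fell in the same comparisons. In heart it was 31571, 26039, 25242, 31317 and 30374 in old controls, 18314, 15727, 23571, 16912 and 20422 under CR, and 18954, 19813, 21241, 16909.8 and 16068 under resveratrol, with old controls above all diet arrays. Its log2 changes were -0.61 ± 0.14 (SE, adjusted p = 0.0017) under CR and -0.64 ± 0.14 (SE, adjusted p = 0.00161) under resveratrol. In neocortex it was 5630.1, 5862, 5368, 5284 and 5131 in old controls, 4061, 3319, 3774, 4193 and 3362 under CR, and 3901, 4357, 4936, 3914 and 3655 under resveratrol, also without overlap, and the log2 change was -0.55 ± 0.09 (SE, adjusted p = 7.07e-05) under CR and -0.40 ± 0.09 (SE, adjusted p = 0.00187) under resveratrol. Of its 4 other probe sets tested in heart, 1 fell under both diets (log2 changes of -0.44 and -0.56) and the others did not pass, at -0.11, -0.03 and 0.69 under CR and -0.09, -0.07 and -0.53 under resveratrol. In neocortex 2 of 3 others fell under CR (-0.37 and -0.41), and under resveratrol none passed (-0.01, -0.17 and -0.01). The mean of its probe sets gave -0.10 (adjusted p = 0.734) under CR and -0.38 (adjusted p = 0.166) under resveratrol in heart. In gastrocnemius no change of the representing probe set passed. Slc25a40 rose under both diets in gastrocnemius, where it read 292, 196, 246, 229.8 and 305 in old controls, 452, 460.5, 404, 353 and 353 under CR, and 373, 386, 378, 326 and 333 under resveratrol. Both diets were above all old controls, with log2 changes of 0.68 ± 0.15 (SE, adjusted p = 0.0022) under CR and 0.52 ± 0.15 (SE, adjusted p = 0.021) under resveratrol. The call for resveratrol was lost without old control 2, at an adjusted p of 0.067.

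Slc25a37 (mitoferrin 1), the form of red cell precursors, rose under CR in heart and fell in muscle. In heart its signal was 879, 989, 719, 1319 and 1156 in young controls, 752, 677, 643, 856 and 862 in old controls, 1803, 759, 2739, 1158 and 1875 under CR, and 1449, 1213, 976, 993 and 1073 under resveratrol. CR replicate 2 lay among the old controls and the other 4 were above them (log2 change 1.01 ± 0.23 (SE), adjusted p = 0.0023). Resveratrol was above all old controls but did not pass (log2 change 0.58 ± 0.23 (SE), adjusted p = 0.0852). Alas2, the first enzyme of red cell heme synthesis, read 2562, 5886, 2314, 10569 and 7183 in young controls, 1980.1, 2163, 1694, 2598 and 2987 in old controls, 10585, 5405, 22014, 5265 and 11558 under CR, and 7578, 7883, 5702, 3358 and 3169 under resveratrol in the same hearts, with CR above all old controls (log2 change 2.08 ± 0.38 (SE), adjusted p = 0.000257). The summed signal of the 4 erythroid markers measured was 1876 to 3175 in old controls, 5584 to 22689 under CR and 3384 to 7989 under resveratrol, and 2 of the 4 were below the filter. Most of this sum was Alas2, the only 1 of the 2 tested markers that rose under CR. CR replicate 3 was highest for Slc25a37 and for Alas2 and old control 3 lowest. The part of red cell RNA in the change of Slc25a37 was not tested.

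In gastrocnemius Slc25a37 was 1279.8, 1138, 748, 1191 and 925 in old controls, 785, 255, 533, 699 and 697 under CR, and 636, 1011, 622, 682 and 850.4 under resveratrol. CR was low on replicate 2 and overlapped the old controls on replicate 1 (log2 change -0.91 ± 0.24 (SE), adjusted p = 0.00813). Under resveratrol the change was -0.47 (adjusted p = 0.183). Erythroid markers of muscle summed to 125 to 317 in old controls and 239 to 362 under CR, with 3 and 2 of the 4 below the filter, and endothelial markers (5 measured, none below the filter) summed to 3234 to 4815 and 1608 to 2470. The part of either cell type was not tested. The CR effect on Slc25a37 differed between heart and gastrocnemius by 1.92 ± 0.32 (SE, adjusted p = 6.01e-06).

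**Figure D5:**
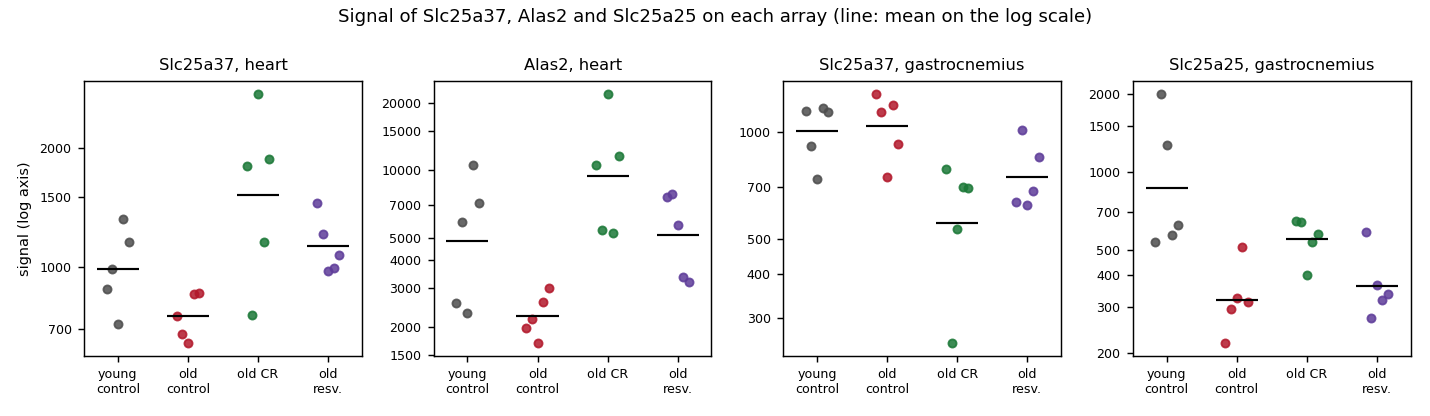
Signal on each array (log axis, line at the mean on the log scale, 5 arrays per group) of Slc25a37 and of the red cell gene Alas2 in heart, and of Slc25a37 and Slc25a25 in gastrocnemius. Of the 5 CR hearts, 4 are above the old controls for Slc25a37 and all 5 for Alas2, and young muscle is above old controls for Slc25a25.

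Of the carriers related to the uncoupling proteins, all 3 changed in neocortex. Slc25a14 rose in neocortex under CR (log2 change 0.22, adjusted p = 0.018) and resveratrol (log2 change 0.31, adjusted p = 0.00186). By its representing probe set, Slc25a27 rose under CR in heart (log2 change 0.70, adjusted p = 0.0152) and fell in neocortex (log2 change -0.33, adjusted p = 0.00829). That of Slc25a30 fell in gastrocnemius under CR (log2 change -0.87, adjusted p = 0.0295) and in neocortex under resveratrol (log2 change -0.36, adjusted p = 0.0413). The first Slc25a30 call was lost without old control 1, 3 or 5 or CR replicate 1 or 2 (adjusted p up to 0.0731), the other without old control 1, 2 or 5 or resveratrol replicate 2, 3, 4 or 5 (up to 0.117). The Slc25a14 call under CR was lost without old control 4 or CR replicate 2 (up to 0.0626). Another probe set of Slc25a27 gave -0.34 under CR in heart, not past the test, and passed in gastrocnemius (1.13) and neocortex (-0.59). A further one fell under resveratrol in neocortex (-0.49). Another probe set of Slc25a30 fell with age (-0.67) and rose under CR (1.02) in heart. It also fell under resveratrol in gastrocnemius (-0.61) and under CR in neocortex (-0.41). The uncoupling proteins belong to the same family and keep their own symbols. Ucp3, that of muscle, had a heart signal of 302, 531, 460.0, 773 and 731 in young controls, 212, 419.9, 138, 336 and 169 in old controls, 2366, 2502, 2211, 2536 and 2785 under CR, and 236, 502, 649.9, 659 and 422 under resveratrol. CR was above all other arrays (log2 change 3.40 ± 0.29 (SE), adjusted p = 1.84e-08), and the fall with age was -1.18 (adjusted p = 0.00926). Ucp3 also rose past the test under resveratrol in heart, with arrays that overlapped the old controls. In gastrocnemius it was 306, 476, 962, 2990.1 and 3014 in old controls, and 5867, 3576, 4796, 5501 and 4419 under CR, without overlap (log2 change 2.18 ± 0.44 (SE), adjusted p = 0.000954). Ucp1, the uncoupling protein of brown fat, read 12.3, 2233, 580.1, 249 and 474 in old controls, 796, 57.9, 816, 3151 and 1852 under CR, and 1737, 796, 7769, 696 and 4976 under resveratrol in heart. The groups overlapped, and Ucp1 did not pass in heart (log2 change 1.37, adjusted p = 0.405 for CR). Ucp2 was not analysed here.

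Slc25a34, whose solute is not settled, is counted above with the di- and tricarboxylate carriers. Of the other 4 carriers without an assigned solute, Slc25a47 and Slc25a48 rose under CR in gastrocnemius. Slc25a48 was dim there, at 80.4, 79.2, 80.4, 45.8 and 51.3 in old controls, and 141, 184, 114, 167 and 118 under CR, without overlap (log2 change 1.12 ± 0.37 (SE), adjusted p = 0.027), and the call was lost without old control 4 or 5 or CR replicate 2 or 4 (adjusted p up to 0.0657). Slc25a47 changed by 0.73 (adjusted p = 0.019). Slc25a46 of the outer membrane rose under CR in gastrocnemius (log2 change 0.34, adjusted p = 0.0479) and neocortex (log2 change 0.25, adjusted p = 0.0131). The call in muscle was lost without old control 2, 3, 4 or 5 or CR replicate 1, 3, 4 or 5 (up to 0.14), and its other probe set fell under CR in gastrocnemius (log2 change -0.42, adjusted p = 0.0118). For age in neocortex Slc25a34 had the lowest p of the members, at a signal of 179, 188, 191, 163 and 247 in young controls, and 371, 199, 242, 221 and 288 in old controls, and did not pass (log2 change 0.43 ± 0.17 (SE), adjusted p = 0.224).

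Across the family the choice of probe set mattered. In 77 cases a called probe set had a second tested one of the same gene. The second pointed the same way in 61 and was called in 27, of which 24 had the same direction and 3 the opposite (Slc25a20, Slc25a44 and Slc25a46, all for CR in gastrocnemius). In 30 comparisons of a gene with age or diet, over 14 genes, another probe set passed the test and the one that represents the gene did not. Slc25a23, Slc25a28, Slc25a16, Slc25a33, Slc25a34 and Slc25a37 have a single probe set here and could not be compared in this way.

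Partners of the carriers changed in part. Mtch1 and Mtch2, relatives of the family in the outer membrane, moved apart: Mtch1 fell in heart under CR (log2 change -0.93, adjusted p = 2.04e-06) and resveratrol (log2 change -0.72, adjusted p = 6.23e-05), and Mtch2 rose under CR (log2 change 0.40, adjusted p = 0.00168) and resveratrol (log2 change 0.46, adjusted p = 0.000709). Of 14 genes of the import machinery that inserts carriers, 0 rose and 5 fell in heart under CR, 3 rose and 1 fell under resveratrol, and 4 rose and 2 fell in gastrocnemius under CR. The median log2 change of this list was -0.23, 0.03 and 0.34 in these comparisons. Tomm40, the pore of the outer membrane, fell in neocortex under CR (log2 change -0.44, adjusted p = 7.64e-05) and resveratrol (log2 change -0.60, adjusted p = 3.58e-06), whereas Tomm20, a receptor of the same complex, rose under CR (log2 change 0.25, adjusted p = 0.0158) and resveratrol (log2 change 0.28, adjusted p = 0.00763). Of 18 other mitochondrial transporters, 3 rose and 4 fell in neocortex under CR, among them Vdac3 (log2 change 0.37, adjusted p = 6.68e-05), and 2 rose and 2 fell in heart, among them Abcb6 (log2 change -1.48, adjusted p = 8.62e-06). Of the shuttle enzymes, Got1, the cytosolic aspartate aminotransferase, fell in gastrocnemius under CR (log2 change -1.39, adjusted p = 0.000123) and resveratrol (log2 change -1.46, adjusted p = 0.000143), 1 of 2 that fell under CR and of 3 under resveratrol among 13 tested.

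Diet effects differed between tissues for many members. In a model of all 60 arrays, which treats the tissues as if from different animals, the CR effect differed between heart and gastrocnemius in 14 of 38 members, against 25% of all genes, between heart and neocortex in 9 of 38, against 10.3%, and between gastrocnemius and neocortex in 13 of 36, against 22%. The resveratrol effect differed in 10, 4 and 5 members, against 20.6%, 6.75% and 14.2%. The age effect differed in 2, 3 and 0 members, against 6.62%, 4.47% and 0.445%. The heart and neocortex shared 8 members called under CR (of 11 and 19), 7 of them in the same direction, with Slc25a27 opposite, and each tissue has its own old controls. Gastrocnemius and heart shared Slc25a37, in opposite directions. Shared calls were not counted over all genes, so these counts do not set the members apart.

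CR and resveratrol were also compared with each other, without the old controls. In heart Slc25a22 and Slc25a34 were higher under CR and Slc25a29 lower, 3 members against 4% of all genes, or 1.43% and 2.57% by direction, and 5 members did not overlap between the diets, against 6.28%. In neocortex Slc25a5 and Slc25a11 were higher under CR, 2 members against 9.28%, or 3.66% and 5.62% by direction, and the groups separated fully in 7.77% of all genes. In gastrocnemius 0 members passed in limma, where 9 had an unadjusted p under 0.05, the lowest adjusted p was 0.0974 and 0.561% of all genes passed. There the methods' t-test at its unadjusted threshold of 0.01 found 1 member on log2 signal and 2 on unlogged signal, and 1 member did not overlap, against 4.27% of all genes. For Slc25a23 the difference between the diets was -0.02 ± 0.20 (SE, adjusted p = 0.968) in heart and -0.27 ± 0.16 (SE, adjusted p = 0.33) in neocortex on the log2 scale, and for Slc25a16 in neocortex it was 0.31 ± 0.10 (SE, adjusted p = 0.0579). A p that misses the threshold does not show that the diets act alike.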

How the data were processed

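The deposited table holds linear signal intensities that the authors made with Affymetrix GCOS 1.2, per the labels, for 60 arrays. On each the 2% trimmed mean was 500 after a scaling here that changed the values by almost nothing, and signals under 1 were set to 1. Genes were named by the platform annotation of 2016 given with the data, in which 34945 of 45037 probe sets have 1 symbol, 932 several and 9160 none. Each gene is represented by its probe set of highest mean log2 signal. Genes whose mean reached the 40th percentile of a tissue (a signal of 60.4 in heart, 69.3 in gastrocnemius and 57.3 in neocortex) were tested with limma 3.58.1 in R 4.3.3 (lmFit, eBayes with trend), 4 groups in 1 model per tissue, with Benjamini-Hochberg adjustment over all 13285, 12831 and 13057 genes. Tissues were compared in 1 model of 12 groups. The test was checked on simulated data. The methods' t-test at p of 0.01, other scalings, filters and probe set rules, a replicate block and single arrays left out were alternatives. The number of arrays limits the precision.

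The members, the gene lists and the markers were chosen with earlier results of these data known. Values in every sample are given for the 3 called members with the largest change in each comparison (the 2 with the lowest p where none was called) and for 6 members of known role (Slc25a4, Slc25a5, Slc25a20, Slc25a25, Slc25a33 and Slc25a37), and for further members chosen after their values were seen. Promoters are those of RefSeq on GRCm38.p6. Some members of the family, among them Slc25a21, Slc25a43 and Slc25a52, and Ucp2 were not analysed here.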

Additional observations from a re-analysis of the deposited data

Results flagged for a closer look

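One sample stood apart within its group. Slc25a17 in gastrocnemius old control 1 read 314, with the gap to the next value large against the range of its group, the only such case among 43 groups tested. Chance gives about 1 in 20.

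Among the members named for the largest changes, the change of 10 differed between tissues by a test of the difference itself (limma, model of all 60 arrays), and these differences are given on the log2 scale as the first tissue minus the second. For CR, Slc25a1 differed by 2.15 and Slc25a16 by -1.0 between gastrocnemius and neocortex. Slc25a29 differed by -1.24 between heart and gastrocnemius and by -0.93 between heart and neocortex, and Slc25a37 by 1.92 and 1.26. Slc25a23 differed for CR by -1.41 between heart and gastrocnemius and by 1.16 between gastrocnemius and neocortex, and for resveratrol by -1.63 and 1.13. Slc25a34 differed for CR by -1.17 between heart and gastrocnemius and by 0.89 between gastrocnemius and neocortex, and for resveratrol by -1.12 between heart and gastrocnemius and -0.95 between heart and neocortex. For resveratrol, Slc25a17 differed by 1.47 between heart and gastrocnemius and by -1.12 between gastrocnemius and neocortex, and Slc25a33 by 1.10 between heart and gastrocnemius and 0.73 between heart and neocortex. For age, Slc25a25 differed by 2.25 between heart and gastrocnemius and Slc25a20 by 0.76 between heart and neocortex. In gastrocnemius the spiked-in transcripts also differed between diets and controls, and in neocortex between resveratrol and old controls. Their part in these differences was not tested.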

How the results depend on the processing

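Of 83 calls of a member in a comparison of a tissue, 36 were past the threshold under all settings and with every array left out. The numbers of members called were 5, 3 and 4 for age in heart (8 as reported) with probe sets of a gene averaged and with the methods' t-test (log2, then unlogged signal). For CR minus resveratrol in heart (3) they were 5 with every probe set, 8 with either t-test at an unadjusted p of 0.01 and 6 without the 2 arrays that stood apart. Age in gastrocnemius (1) gave 0 with either t-test after adjustment, with only the 2 groups, with quantile normalization and with a replicate block, and 2 with the t-test on log2 signal at 0.01. CR minus resveratrol in gastrocnemius (0) gave 1 and 2 with the t-tests on log2 and unlogged signal at 0.01 and 1 without the 2 arrays. Resveratrol in gastrocnemius (3) gave 11 with every probe set, 6 with a filter at the 60th percentile, 8 with the t-test on log2 signal both adjusted and at 0.01, 9 and 8 on unlogged signal, 9 with only the 2 groups and 7 without the 2 arrays. CR minus resveratrol in neocortex (2) gave 1 with averaged probe sets and with either t-test. For the age effect, heart minus gastrocnemius (2) gave 1 with no filter, quantile normalization or the block, and heart minus neocortex (3) gave 0 with no filter or quantile normalization. For the resveratrol effect, gastrocnemius minus neocortex (5) gave 8 with every probe set and 3 with no filter. Shares of all genes are not given for these settings or for single arrays left out, so a moved count need not be particular to the members. The causes of the moves were not tested.

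With 1 array left out at a time, the counts in heart were 5 to 9 for age, 9 to 12 for CR, 8 to 12 for resveratrol and 3 to 4 for CR minus resveratrol. In gastrocnemius they were 0 to 1, 12 to 15, 1 to 6 and 0 to 0, and in neocortex 0 to 0, 15 to 19, 10 to 12 and 1 to 4. Age in heart had 5 without old control 5. Resveratrol in gastrocnemius had 1 without old control 2 and 6 without old control 1. CR minus resveratrol in neocortex had 1 without CR replicate 1 or resveratrol replicate 3 and 4 without resveratrol replicate 5. Levels gave 31 to 32 for heart minus gastrocnemius, 36 to 38 for heart minus neocortex and 31 to 33 for gastrocnemius minus neocortex. For these pairs the age effect gave 1 to 3, 0 to 3 and 0 to 0, the CR effect 14 to 17, 7 to 9 and 11 to 15, and the resveratrol effect 9 to 11, 2 to 5 and 3 to 6. The age effect in heart minus neocortex had 0 without heart old control 4, neocortex old control 2 or 3 or neocortex young control 4. The resveratrol effect in heart minus neocortex had 2 without heart old control 4, neocortex old control 3 or neocortex resveratrol replicate 4, and that in gastrocnemius minus neocortex had 3 without gastrocnemius resveratrol replicate 2, neocortex old control 5 or neocortex resveratrol replicate 5.

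With probe sets averaged, 7 log2 values changed sign: for Slc25a17 resveratrol in gastrocnemius 0.20, its resveratrol effect in gastrocnemius minus neocortex 0.22, its CR effect in gastrocnemius minus neocortex 0.36 and in heart minus gastrocnemius -0.006487, and for CR in gastrocnemius Slc25a44 0.12, Slc25a46 -0.037 and Slc25a51 0.45. Calls lost with averaging were, in heart, Slc25a29 and Slc25a42 for age, Slc25a27 and Slc25a39 for CR and Slc25a39 and Slc25a42 for resveratrol. In neocortex they were Slc25a17, Slc25a20 and Slc25a42 for CR and Slc25a20, Slc25a25, Slc25a30, Slc25a39 and Slc25a42 for resveratrol and Slc25a5 for CR minus resveratrol, and in gastrocnemius Slc25a20, Slc25a30 and Slc25a42 for CR and Slc25a44 for resveratrol, beside those that changed sign. Averaging took in probe sets below the filter, as for Slc25a17 and, in gastrocnemius and neocortex, Slc25a42. In heart, Slc25a23 for age and Slc25a13 and Slc25a16 for CR have 1 probe set each. Their log2 values stayed the same, while the adjusted p in limma went to 0.0611, 0.0684 and 0.062. Without the 2 arrays that stood apart, calls were also lost for Slc25a1, Slc25a35 and Slc25a38 under CR in gastrocnemius and Slc25a16 under CR in heart.

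Within a tissue, same-numbered arrays of different groups had correlations between -0.226 and 0.119 once group means were taken off. Such arrays are from different animals, so the values cannot show whether a number marks the same mouse across tissues. The labels do not say so either. With the replicate block the counts for age, CR and resveratrol were 8, 11 and 9 in heart, 0, 14 and 3 in gastrocnemius and 0, 19 and 12 in neocortex. Same-numbered arrays of different tissues had a consensus correlation of -0.00189.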
